A study of Mus musculus with 12 samples.

Results

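The genes described here encode the superoxide-producing NADPH oxidase of phagocytes, the proton channel that works beside it, and the mitochondrial superoxide dismutase, as measured in cultured mouse microglia. The members are 7 genes, Cybb, Cyba, Ncf1, Ncf4, Rac2, Hvcn1 and Sod2, among the 19938 genes that the arrays measured with a probe set annotated to a single gene symbol. Each of the 7 had 1 such probe set, and none was removed by a filter. The cells were primary microglia sorted by their surface CD11b with magnetic beads from brains of C57BL/6J pups (postnatal day 7), then grown for 3 days in medium with serum. They were then treated for 6 h in 4 ways: with 10 µM oligomeric Aβ42 together with 100 nM AE1-329, with 10 µM oligomeric Aβ42 alone, with 100 nM AE1-329 alone, or with the vehicles alone. The labels give 0.4% DMSO as the vehicle in place of Aβ42, in the cells with AE1-329 alone and with vehicle, and 0.001% ethanol as the vehicle in place of AE1-329, in the cells with Aβ42 alone and with vehicle. Aβ42 is the amyloid peptide that accumulates in Alzheimer's disease, and AE1-329 is an agonist of the prostaglandin receptor EP4. Cells of 3 litters were kept apart as biological replicates, so that each treatment had 3 Affymetrix Mouse Gene 1.0 ST arrays and the study 12. Each sample pooled the pups of a litter, the cells were neonatal and cultured, and only 1 dose and 1 time were used.

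The phagocyte oxidase moves electrons from NADPH in the cytosol across a membrane onto oxygen, which makes superoxide in the phagosome or outside the cell. Its membrane part is a pair of proteins, the catalytic subunit encoded by Cybb and the stabilising subunit encoded by Cyba; cytosolic proteins, among them those encoded by Ncf1 and Ncf4, and a Rac GTPase join that pair when the cell is activated. The voltage-gated proton channel encoded by Hvcn1 carries protons the same way and so balances the charge that the electrons leave. Sod2 encodes the manganese superoxide dismutase, which converts superoxide to hydrogen peroxide inside mitochondria and is no part of the oxidase. In the brain the phagocyte oxidase is known mainly from microglia, and EP4 is a receptor that raises cyclic AMP. The arrays measure RNA, so assembly of the oxidase and superoxide itself were not measured.

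The promoter windows of 4 of the 7 genes were present in RefSeq's GRCm38.p6 table: Cybb at chrX:9469275-9469574 on the minus strand, Cyba at chr8:122432891-122433190 on the minus strand, Ncf1 at chr5:134229576-134229875 on the minus strand and Sod2 at chr17:13007589-13007888 on the plus strand. Each window runs 5′ to 3′ from 250 bases before the gene's start to 50 bases after it. They are shown because they are the members' windows that the table holds. They include Cyba, which did not pass the test with Aβ42 alone, and Sod2, the member with the highest change. Capitals mark matches on either strand to 5 motifs: the NF-kB type (GGG and CC with any 5 bases between them), the ETS core GAGGAA that PU.1 also binds, the IRF type (GAAA and GAAA with any 2 bases between them), the AP-1 type TGANTCA and the cAMP response element TGACGTCA.
Cybb: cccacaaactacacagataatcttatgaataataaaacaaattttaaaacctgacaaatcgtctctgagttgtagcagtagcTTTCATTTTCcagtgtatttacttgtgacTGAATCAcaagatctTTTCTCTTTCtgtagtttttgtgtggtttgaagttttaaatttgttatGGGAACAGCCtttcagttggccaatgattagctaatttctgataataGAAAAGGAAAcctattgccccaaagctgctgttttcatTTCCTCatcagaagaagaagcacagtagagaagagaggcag
Cyba: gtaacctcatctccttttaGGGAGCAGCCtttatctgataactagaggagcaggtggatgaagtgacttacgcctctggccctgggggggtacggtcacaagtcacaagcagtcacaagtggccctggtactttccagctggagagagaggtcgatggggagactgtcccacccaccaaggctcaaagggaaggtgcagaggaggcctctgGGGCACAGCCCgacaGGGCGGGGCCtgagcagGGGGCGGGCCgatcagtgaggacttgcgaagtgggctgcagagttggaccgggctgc
Ncf1: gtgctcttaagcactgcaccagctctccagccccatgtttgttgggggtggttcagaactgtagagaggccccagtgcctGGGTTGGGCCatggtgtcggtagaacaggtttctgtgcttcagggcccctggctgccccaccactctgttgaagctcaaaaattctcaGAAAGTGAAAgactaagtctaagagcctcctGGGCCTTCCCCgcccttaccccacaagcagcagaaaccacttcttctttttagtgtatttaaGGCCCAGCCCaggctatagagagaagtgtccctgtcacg
Sod2: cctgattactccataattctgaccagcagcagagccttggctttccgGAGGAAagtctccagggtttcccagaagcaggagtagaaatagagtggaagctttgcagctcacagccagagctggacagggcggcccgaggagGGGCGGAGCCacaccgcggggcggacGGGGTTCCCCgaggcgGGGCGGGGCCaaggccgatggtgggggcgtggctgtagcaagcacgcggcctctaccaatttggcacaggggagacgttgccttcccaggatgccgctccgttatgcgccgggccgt
The Cybb window held 3 matches to the IRF type, 1 to the AP-1 type, 1 to the ETS core and 1 to the NF-kB type. The Ncf1 window held 1 match to the IRF type and matches to the NF-kB type at separate places. Of these, only the matches that begin 51 and 50 bases before the start overlapped. The Sod2 window held 1 ETS core and 3 places that matched the NF-kB type, of which GGGGTTCCCC, 83 bases before the start, matched on both strands. The Cyba window matched only the NF-kB type, and its matches partly overlapped. None of the 4 windows held TGACGTCA. Among the 32851 promoter windows of the table, 50.8% held the NF-kB type, 28.3% the ETS core, 3.44% the IRF type, 7.81% the AP-1 type and 1.79% the cAMP response element. A match is a run of letters and not a measured binding site. The NF-kB type fixes only GGG and CC, so its matches need not be NF-kB sites. Among them is GGGCGGGGCC, found in the Cyba and Sod2 windows.

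Deposited values were on the log2 scale, and a level below means such a value. They ran between 2.79 and 13.95, and the 12 array medians lay between 6.97 and 7.05. In vehicle-treated cells the means of 11 microglia markers lay between 8.14 and 13.21. Csf1r averaged 12.58, Fcrls 12.09 and Cx3cr1 11.84, while P2ry12 averaged 9.18, Tmem119 8.33 and Aif1 8.14. The means of 12 neutrophil markers lay between 4.90 and 10.49 there. The highest was Csf3r, a cytokine receptor gene, at 10.49, followed by Mmp8 at 7.48, while Ly6g averaged 5.29 and S100a8 5.38. Neutrophils are the blood cells best known for this oxidase. Vehicle replicate 1 stood apart from the other vehicle arrays. The median SD of a gene over the 3 replicates was 0.109 in the vehicle group and between 0.063 and 0.066 in the 3 treated groups. For the 7 genes, vehicle replicate 1 minus the mean of vehicle replicates 2 and 3 was 0.08 for Cybb, -0.22 for Cyba, -0.25 for Ncf1, -0.61 for Ncf4, -0.17 for Rac2, -0.29 for Hvcn1 and 0.31 for Sod2. The members' changes with Aβ42 alone or AE1-329 alone, and the list counts it moved, are given without that array where they are described.

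Aβ42 raised the RNA of most of the oxidase, of its proton channel and of Sod2. Against vehicle, 6 of the 7 genes rose and none fell, by 1.33-fold for Cybb up to 3.87-fold for Sod2, and Cyba did not pass the test. AE1-329 alone lowered Hvcn1 and Sod2, and no oxidase gene passed the test. When AE1-329 was added to Aβ42, no member passed the test against Aβ42 alone. The test was limma's moderated test, fitted to all 12 arrays and adjusted by the Benjamini-Hochberg method over the 19938 genes, with a threshold of 0.05 on the adjusted p. Changes are differences of log2 values with their SE from this fit. Among all genes, 10.7% rose and 14.8% fell with Aβ42 alone against vehicle. When only the 9969 genes above the median level were tested, 4728 were called in either direction. In bulk RNA, fewer or more cells of a type and less or more RNA per cell cannot be told apart.

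**Figure D1:**
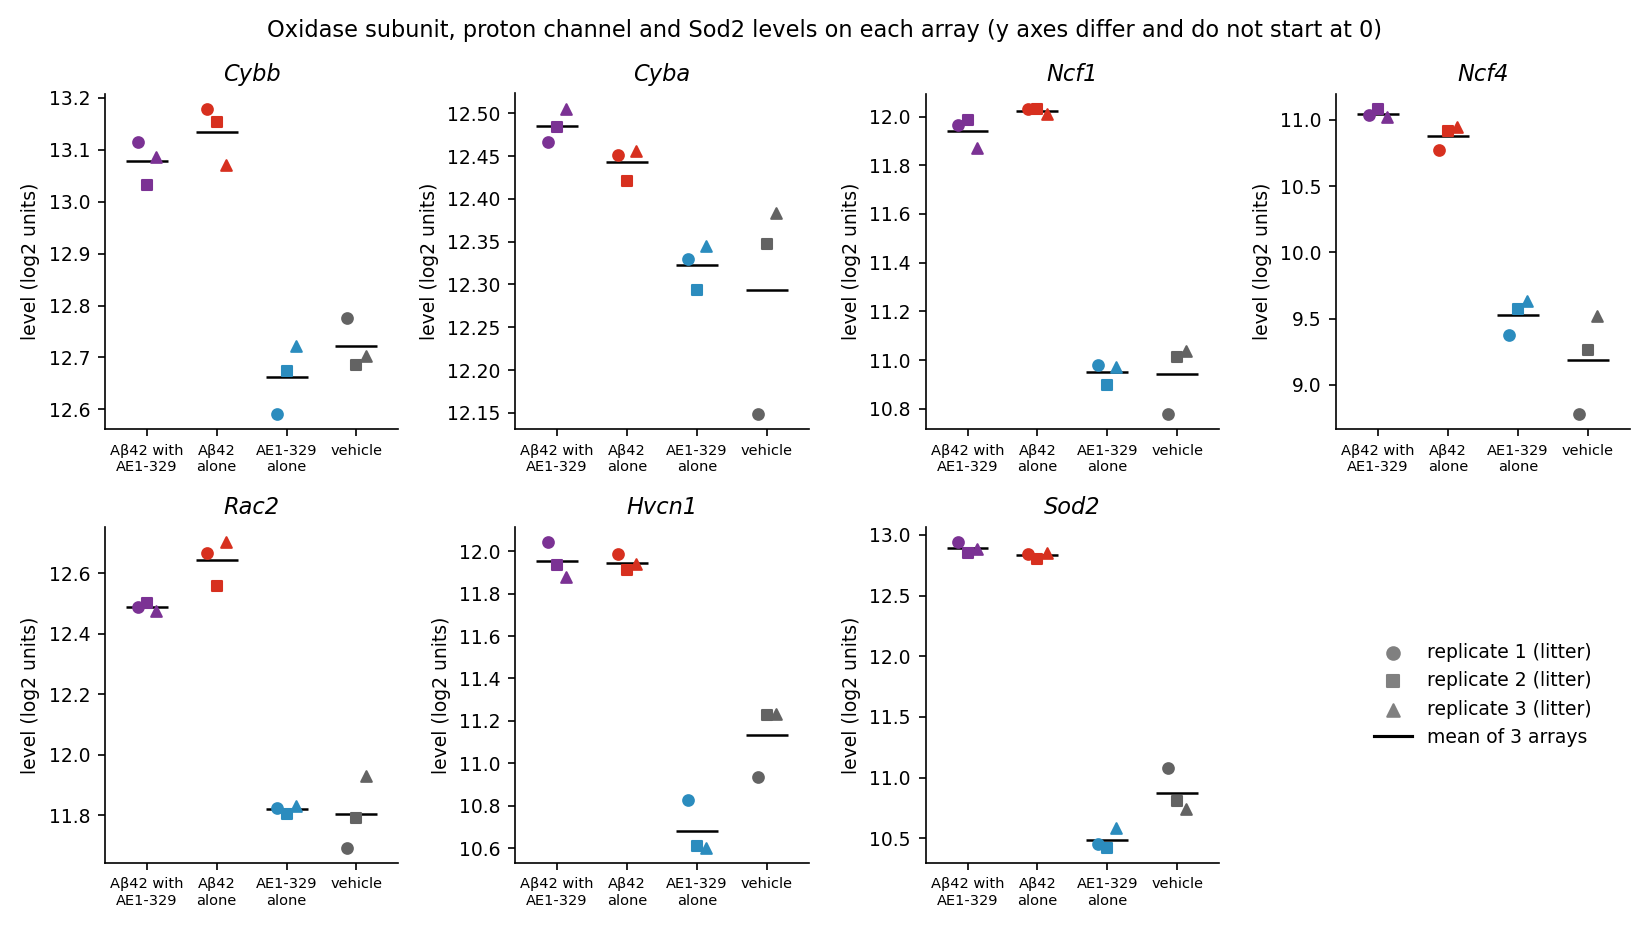
Log2 levels of the 7 genes, 1 panel a gene, with the 4 treatment groups on the horizontal axis, 1 point per array (marker shapes give the replicate number) and the group mean as a line. Hvcn1 and Sod2 show the arrays with AE1-329 alone below those with vehicle, and all 7 panels show both groups with Aβ42 above both groups without it.

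Cybb encodes the catalytic membrane subunit, which carries the haem and flavin groups. Its level was 13.12, 13.03 and 13.09 with Aβ42 and AE1-329, 13.18, 13.15 and 13.07 with Aβ42 alone, 12.59, 12.67 and 12.72 with AE1-329 alone, and 12.78, 12.69 and 12.70 with vehicle. All 6 arrays with Aβ42 lay above all 6 without it. With Aβ42 alone Cybb rose by 0.41 ± 0.06 (SE) against vehicle, limma adjusted p = 8.22e-05, and the difference was 0.40, 0.47 and 0.37 in litters 1, 2 and 3. Without vehicle replicate 1 it rose by 0.44. In the presence of AE1-329 the change with Aβ42 was 0.42 ± 0.06, limma adjusted p = 9.08e-05.

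Cyba encodes the small subunit without which the catalytic subunit is unstable. Its level was 12.47, 12.48 and 12.51 with Aβ42 and AE1-329, 12.45, 12.42 and 12.46 with Aβ42 alone, 12.33, 12.29 and 12.34 with AE1-329 alone, and 12.15, 12.35 and 12.38 with vehicle. The groups with and without Aβ42 again did not overlap, but the gaps were small beside the spread of the vehicle arrays. The change with Aβ42 alone was 0.15 ± 0.06 against vehicle, with a 95% interval of 0.02 to 0.28 and a limma adjusted p of 0.0953. It was 0.30 in litter 1, which holds the low vehicle array, and 0.07 in litters 2 and 3. Leaving out vehicle replicate 1 made the change 0.08, and leaving out vehicle replicate 3 made it 0.20, which passed with a limma adjusted p of 0.0403.

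Ncf1 encodes the organiser subunit, whose phosphorylation starts assembly. Its level was 11.97, 11.99 and 11.87 with Aβ42 and AE1-329, 12.03, 12.03 and 12.01 with Aβ42 alone, 10.98, 10.90 and 10.97 with AE1-329 alone, and 10.78, 11.01 and 11.04 with vehicle. The 2 groups with Aβ42 lay close together, and so did the 2 groups without it. With Aβ42 alone Ncf1 rose by 1.08 ± 0.07 against vehicle, which is 2.12-fold, limma adjusted p = 6.64e-08. The litters gave 1.25, 1.02 and 0.97, and the change was 1.00 with vehicle replicate 1 left out.

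Ncf4 encodes the subunit that binds phosphatidylinositol phosphate on phagosomes. Its level was 11.04, 11.08 and 11.02 with Aβ42 and AE1-329, 10.77, 10.92 and 10.95 with Aβ42 alone, 9.38, 9.57 and 9.63 with AE1-329 alone, and 8.78, 9.26 and 9.52 with vehicle. The vehicle arrays spread more widely than any other group of this gene, with an SD of 0.376 against 0.034 with Aβ42 and AE1-329. With Aβ42 alone Ncf4 rose by 1.69 ± 0.14 against vehicle, which is 3.23-fold, limma adjusted p = 1.01e-06, and without vehicle replicate 1 the change was 1.49. It was the largest change among the 5 oxidase genes in this comparison, and it was present in every litter, at 1.99, 1.66 and 1.43.

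Rac2 encodes the Rac GTPase of blood cells that switches the assembled oxidase on. Its level was 12.49, 12.50 and 12.47 with Aβ42 and AE1-329, 12.67, 12.56 and 12.70 with Aβ42 alone, 11.82, 11.81 and 11.83 with AE1-329 alone, and 11.69, 11.79 and 11.93 with vehicle. The arrays with Aβ42 and AE1-329 were all below those with Aβ42 alone and far above those without Aβ42. With Aβ42 alone Rac2 rose by 0.84 ± 0.06 against vehicle, which is 1.79-fold, limma adjusted p = 3.9e-07. The litters gave 0.97, 0.77 and 0.77, and the change was 0.78 with vehicle replicate 1 left out.

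Hvcn1 encodes the proton channel. Its level was 12.04, 11.93 and 11.88 with Aβ42 and AE1-329, 11.99, 11.91 and 11.94 with Aβ42 alone, 10.83, 10.61 and 10.60 with AE1-329 alone, and 10.94, 11.23 and 11.23 with vehicle. The 2 groups with Aβ42 overlapped, and the arrays with AE1-329 alone were all below the vehicle arrays. With Aβ42 alone Hvcn1 rose by 0.81 ± 0.09 against vehicle, which is 1.76-fold, limma adjusted p = 1.02e-05. It was 0.72 when vehicle replicate 1 was left out.

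Sod2 encodes the mitochondrial dismutase, a gene that inflammatory signals induce in many cell types. Its level was 12.94, 12.85 and 12.89 with Aβ42 and AE1-329, 12.84, 12.80 and 12.85 with Aβ42 alone, 10.45, 10.42 and 10.59 with AE1-329 alone, and 11.08, 10.80 and 10.74 with vehicle. The groups with and without Aβ42 were about 2 log2 units apart. With Aβ42 alone Sod2 rose by 1.95 ± 0.08 against vehicle, limma adjusted p = 1.02e-09, and by 2.06 with vehicle replicate 1 left out. Counted from the highest change of all 19938 genes, Sod2 was at rank 115 and Ncf4 at rank 156, whereas Cybb was at rank 1001.

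**Figure D2:**
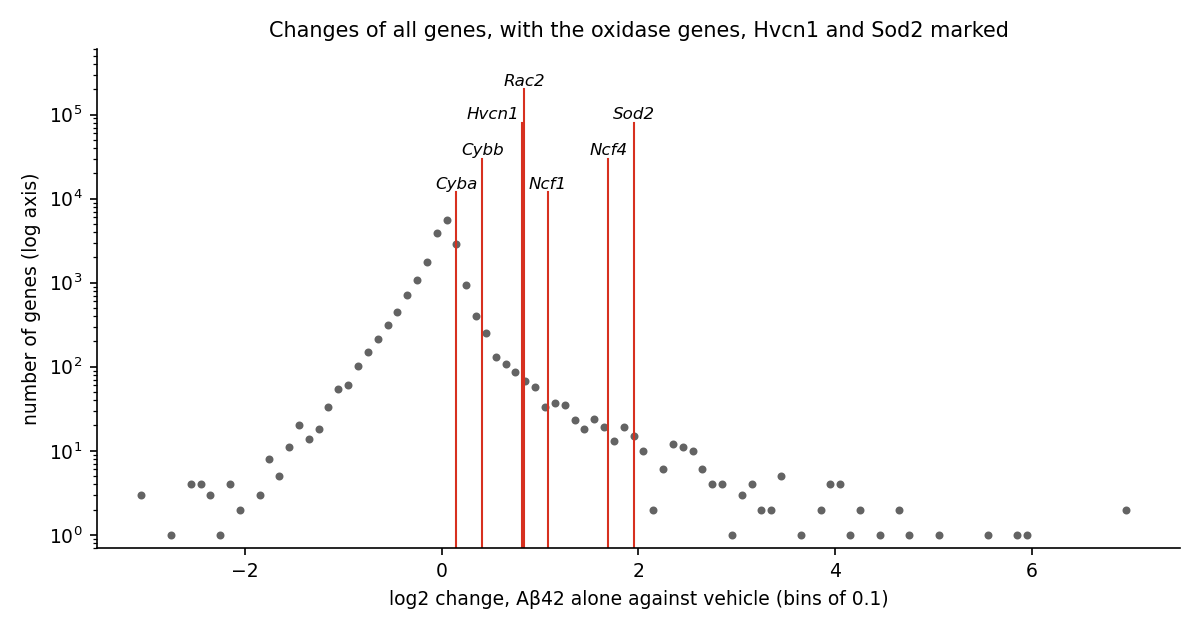
Number of genes (log axis) in each bin of 0.1 of the log2 change with Aβ42 alone against vehicle, 1 point per bin that holds a gene, with the 7 genes marked by red lines whose heights carry no value. Sod2 at 1.95 and Ncf4 at 1.69 lie in the thin upper tail, and Cyba at 0.15 lies beside the bulk of all genes.

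As a group, the 7 genes had a median change of 0.84 with Aβ42 alone against vehicle, beside a median of 0.02 over all genes. The levels of all 7 did not overlap between these 2 groups, which was true of 35.0% of all genes. Without vehicle replicate 1, 6 of the 7 were still called higher and none lower, while 28.6% of all genes were called in either direction. The change with Aβ42 was also measured in cells given AE1-329, as Aβ42 with AE1-329 against AE1-329 alone. These arrays were of other groups but came from the same litters, and the fit shared its estimate of the spread over all groups. Here too 6 of 7 rose and none fell, with Cyba at 0.16 ± 0.06 and a limma adjusted p of 0.0785, against 9.77% of all genes called higher. The median change was 0.99, beside 0.01 over all genes. In this comparison all 7 did not overlap between groups, against 40.1% of all genes. Sod2 rose by 2.40 ± 0.08, limma adjusted p = 1.53e-10, Ncf4 by 1.52 ± 0.14, limma adjusted p = 3.17e-06, and Hvcn1 by 1.27 ± 0.09, limma adjusted p = 1.53e-07. Ncf1 rose by 0.99 ± 0.07 and Rac2 by 0.67 ± 0.06.

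**Figure D3:**
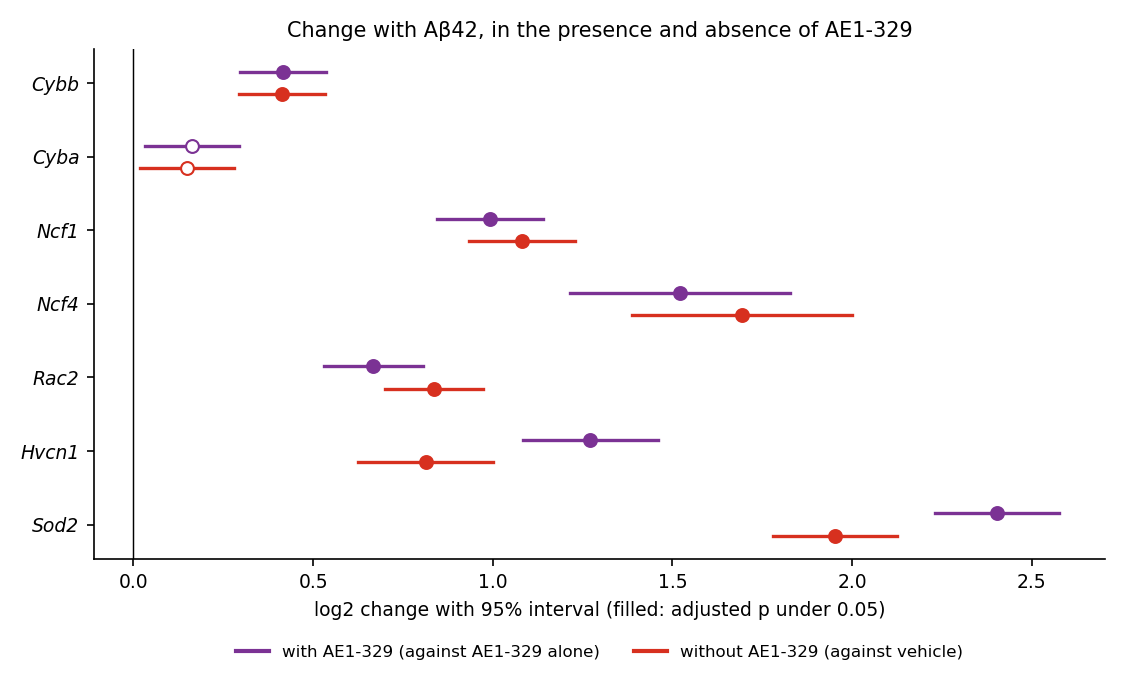
Log2 change with Aβ42 and its 95% interval for each gene, in purple with AE1-329 present (against AE1-329 alone) and in red without it (against vehicle); filled points passed the adjusted p threshold of 0.05. The 2 intervals overlap for the oxidase genes, and for Hvcn1 (1.27 against 0.81) and Sod2 (2.40 against 1.95) the purple interval lies to the right of the red one.

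AE1-329 alone, against vehicle, lowered the proton channel and the dismutase and left the 5 oxidase genes without a call. Hvcn1 fell by 0.45 ± 0.09, which is 1.37-fold, with a 95% interval from -0.64 to -0.26 and a limma adjusted p of 0.00436. Sod2 fell by 0.39 ± 0.08, which is 1.31-fold, with a 95% interval from -0.56 to -0.22 and a limma adjusted p of 0.00672. Both were lower in all 3 litters: the differences were -0.11, -0.62 and -0.63 for Hvcn1 and -0.63, -0.38 and -0.16 for Sod2. Litter 1 thus gave the smallest difference for Hvcn1 and the largest for Sod2. Without vehicle replicate 1 both were still called, at -0.55 for Hvcn1 and -0.29 for Sod2. When only the arrays of these 2 groups were fitted, Sod2 missed the threshold with a limma adjusted p of 0.0689. Among all genes, 4.71% rose and 5.45% fell in this comparison, and 22.9% did not overlap between groups, as did 2 of the 7.

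No oxidase gene passed with AE1-329 alone. The difference was 0.01 for Ncf1, 0.01 for Rac2, 0.03 for Cyba and -0.06 for Cybb, and with vehicle replicate 1 left out it was -0.08 for Ncf1, -0.04 for Rac2, -0.04 for Cyba and -0.03 for Cybb. With all arrays they had limma adjusted p from 0.651 for Cybb upward. Ncf4 was 0.34 ± 0.14 higher, with a 95% interval of 0.03 to 0.64, and did not pass with a limma adjusted p of 0.178. That difference depended on vehicle replicate 1, without which it was 0.14, and on vehicle replicate 3, without which it was 0.51 and passed with a limma adjusted p of 0.0196. The median change of the 7 genes was 0.01, beside -0.01 over all genes.

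**Figure D4:**
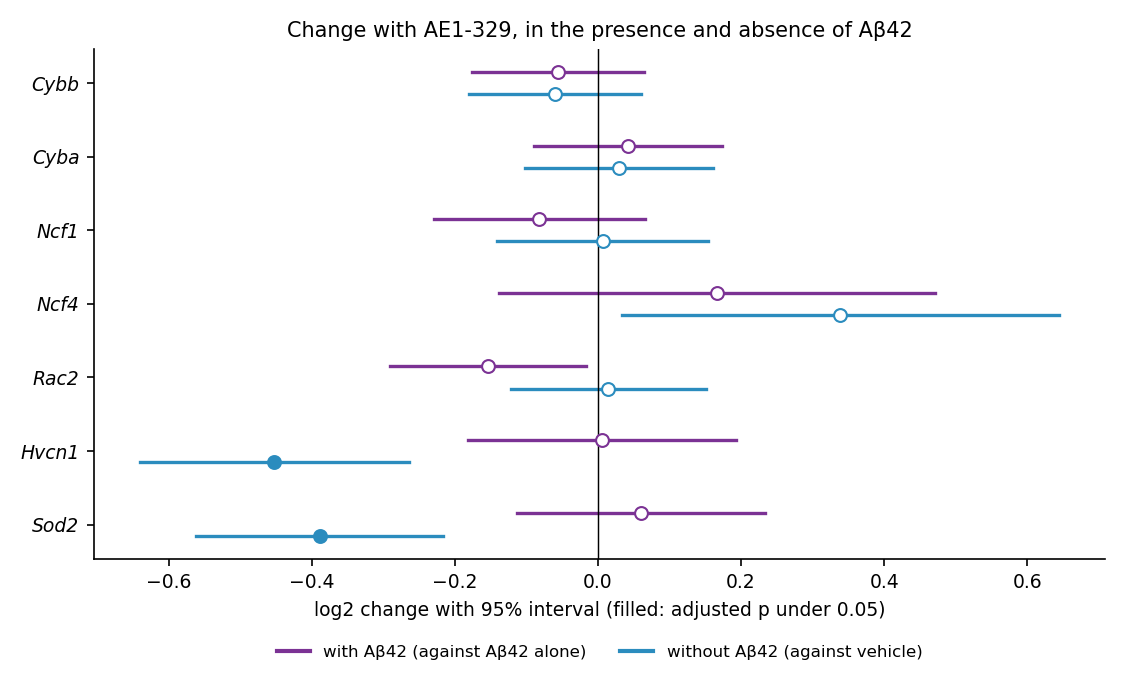
Log2 change with AE1-329 and its 95% interval for each gene, with Aβ42 present (against Aβ42 alone) and without it (against vehicle); filled points passed the adjusted p threshold of 0.05. Only Hvcn1 and Sod2 without Aβ42 are filled, at -0.45 and -0.39, and their values with Aβ42 present lie at 0.01 and 0.06.

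AE1-329 added to Aβ42, against Aβ42 alone, moved none of the 7 genes past the threshold, while 5.99% of all genes rose and 5.04% fell. The median change was 0.01, beside -0.02 over all genes. The levels of 5 of the 7 genes did not overlap between the 2 groups, against 32.0% of all genes, but the gaps were small. Rac2 was the largest in the downward direction, at -0.15 ± 0.06 with a 95% interval from -0.29 to -0.02 and a limma adjusted p of 0.171, and it was lower in all 3 litters by -0.18, -0.05 and -0.23. Ncf4 was the largest in the upward direction, at 0.17, with a limma adjusted p of 0.606. The difference was -0.08 for Ncf1 and -0.06 for Cybb. For Hvcn1 the change was 0.01 with a 95% interval from -0.18 to 0.19, and for Sod2 it was 0.06 with a 95% interval from -0.11 to 0.23. The missing calls do not show that the levels were alike.

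Against vehicle, Aβ42 with AE1-329 raised all 7 genes, in a comparison in which 9.27% of all genes rose and 30.3% did not overlap between groups, as all 7 did. The median change was 0.82, beside -0.01 over all genes. Sod2 rose by 2.01 ± 0.08, which is 4.04-fold, and Ncf4 by 1.86 ± 0.14, which is 3.63-fold. Cyba passed only here, at 0.19 ± 0.06 with a limma adjusted p of 0.0384, and without vehicle replicate 1 it was 0.12 with a limma adjusted p of 0.0704. The Cyba call was also lost when any single array of the other 3 groups was left out, with limma adjusted p between 0.0514 and 0.112. Set beside the change with Aβ42 alone, which was measured against the same vehicle arrays, the change with both agents was 81.6% as large for Rac2, 86.3% for Cybb, 92.4% for Ncf1, 100.7% for Hvcn1, 103.1% for Sod2 and 109.8% for Ncf4.

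Whether AE1-329 acted differently with and without Aβ42 was tested as an interaction, the AE1-329 change with Aβ42 minus that without it. None of the 7 passed, while 1.95% of all genes did. The interaction was 0.45 ± 0.11 for Sod2 with a 95% interval of 0.20 to 0.69 and a limma adjusted p of 0.0707, and with the litters as a replicate block it passed, with a limma adjusted p of 0.0402. For Hvcn1 it was 0.46 ± 0.12 with a 95% interval of 0.19 to 0.72 and a limma adjusted p of 0.091. Both passed without vehicle replicate 1, at 0.56 for Hvcn1 with a limma adjusted p of 0.0125 and at 0.35 for Sod2 with a limma adjusted p of 0.0386, and Sod2 also passed without vehicle replicate 3, at 0.52 with a limma adjusted p of 0.033. For the oxidase genes the interaction was -0.17 ± 0.20 for Ncf4, -0.17 ± 0.09 for Rac2, -0.09 for Ncf1, 0.01 for Cyba and 0.00 for Cybb, with limma adjusted p between 0.591 for Rac2 and 0.999 for Cybb.

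The list of other proteins that act with the phagocyte oxidase had 4 measured genes: Rac1, the chaperone gene Cybc1, Rap1a and Rap1b. Only Rap1b rose with Aβ42 alone against vehicle and none fell, beside 10.7% and 14.8% of all genes. Rap1b, a small GTPase close to the one that copurifies with the oxidase, rose by 0.45 ± 0.05. It fell by 0.21 ± 0.05 when AE1-329 was added to Aβ42, limma adjusted p = 0.0129, a call that was lost without replicate 2 of Aβ42 with AE1-329 or replicate 1 of Aβ42 alone. With AE1-329 alone none of the 4 passed, and 1 did without vehicle replicate 3. The other NADPH oxidases and their partners, 9 of 9 measured, had no limma call with Aβ42 alone, with AE1-329 alone or with AE1-329 added to Aβ42, and at an unadjusted p under 0.05 the counts were 0, 0 and 1. Without replicate 3 of Aβ42 alone 1 of them passed in the first comparison and 1 in the last, and so it was with the replicate block. Their mean level lay between 6.12 and 6.43 on the vehicle arrays, below the array medians of 6.97 to 7.05. Of all genes, 4.71% rose and 5.45% fell with AE1-329 alone, and 5.99% rose and 5.04% fell with AE1-329 added to Aβ42.

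Kinases, exchange factors and lipases that prime the oxidase or control Rac were 16 measured of 20 listed. With Aβ42 alone against vehicle 7 rose and none fell, beside 10.7% and 14.8% of all genes. The median change over the list was 0.11. With vehicle replicate 1 left out 8 of the list rose and 2 fell. Syk, the kinase that couples immune receptors to the oxidase, rose by 2.004 ± 0.07. Pik3cg, a phosphoinositide kinase, rose by 0.97 ± 0.06, and Vav1, a Rac exchange factor, by 0.78 ± 0.06. Prkcd, a protein kinase C that phosphorylates the organiser subunit, rose by 0.63 ± 0.06, and Pla2g4a, the cytosolic phospholipase, by 0.46 ± 0.06. With AE1-329 alone against vehicle 2 of the list rose and 3 fell, beside 4.71% and 5.45% of all genes. With vehicle replicate 1 left out 3 of the list rose and 4 fell. Syk rose by 0.64 ± 0.07 in that comparison and Pla2g4a fell by 0.85 ± 0.06. When AE1-329 was added to Aβ42, 2 rose and 3 fell, among them Vav1, which fell by 0.34 ± 0.06, Pla2g4a, which fell by 0.32 ± 0.06, and Pik3cg, which fell by 0.27 ± 0.06. These 5 calls became 8, with 3 higher and 5 lower, when vehicle replicate 1 was left out. With the replicate block 2 were higher and 5 lower. Among all genes 5.99% rose and 5.04% fell with AE1-329 added to Aβ42.

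Of the enzymes that remove superoxide and peroxide beside Sod2, 16 of 18 were measured. With Aβ42 alone against vehicle 5 rose and 1 fell, beside 10.7% and 14.8% of all genes. The median change was 0.02, the same to 2 decimals as over all genes. The genes of the thioredoxin and glutathione reductases led: Txnrd1 rose by 1.55 ± 0.07, Gsr by 1.14 ± 0.06, and the glutaredoxin gene Glrx by 0.79 ± 0.05. Prdx1, a peroxiredoxin, rose by 0.27 ± 0.08, limma adjusted p = 0.0276, and Gpx1, a glutathione peroxidase, fell by 0.27 ± 0.08, limma adjusted p = 0.0198. The count of 6 calls became 3 without replicate 1 or 2 of Aβ42 alone or without vehicle replicate 3. Without vehicle replicate 1, 5 of the list rose and 2 fell. The calls of Prdx1 and Gpx1 were each lost without replicate 1 or 2 of Aβ42 alone or vehicle replicate 2 or 3. With AE1-329 alone 1 rose and 1 fell, and these 2 calls became 1 without replicate 1 or 3 of AE1-329 alone, 0 without its replicate 2 and 4 without vehicle replicate 2. Without vehicle replicate 1, 1 rose and 2 fell, and with the replicate block 1 rose and 3 fell. Among all genes 4.71% rose and 5.45% fell with AE1-329 alone. With AE1-329 added to Aβ42 only Gsr rose, by 0.25 ± 0.06, a call that was lost without replicate 1 of Aβ42 with AE1-329 or replicate 2 or 3 of Aβ42 alone. With all arrays none of the list fell in that comparison, in which 5.99% of all genes rose and 5.04% fell. Without vehicle replicate 1, 2 of the list were called, and 15.5% of all genes in either direction.

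Channels, exchangers and proton pumps that act beside the oxidase were 11 measured of 13. With Aβ42 alone against vehicle 5 rose and 4 fell, beside 10.7% and 14.8% of all genes. When only the 9969 genes above the median level were tested, 4728 of them were called in either direction. Kcna3, a voltage-gated potassium channel of microglia, rose by 1.72 ± 0.12, Clcn7, a lysosomal chloride exchanger, by 0.44 ± 0.08, and the proton pump genes Tcirg1 and Atp6v1h by 0.41 ± 0.06 and 0.39 ± 0.07. Atp6v0d2, a further pump subunit, fell by 0.51 ± 0.07. With AE1-329 alone none rose and 4 fell, beside 4.71% and 5.45% of all genes. These 4 calls became 2 without replicate 1 of AE1-329 alone or vehicle replicate 2, 8 without vehicle replicate 1 and 5 with the replicate block. With AE1-329 added to Aβ42 none rose and 5 fell, beside 5.99% and 5.04% of all genes. These 5 became 3 without replicate 1 or 2 of Aβ42 with AE1-329 or any replicate of Aβ42 alone. They became 2 without replicate 3 of Aβ42 with AE1-329, 7 without vehicle replicate 1 and 6 with the replicate block. Kcna3 fell with AE1-329 alone, by 0.69 ± 0.12. It also fell with AE1-329 added to Aβ42, by 0.50 ± 0.12, a call that was lost without replicate 2 or 3 of Aβ42 with AE1-329 or replicate 1 of Aβ42 alone.

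**Figure D5:**
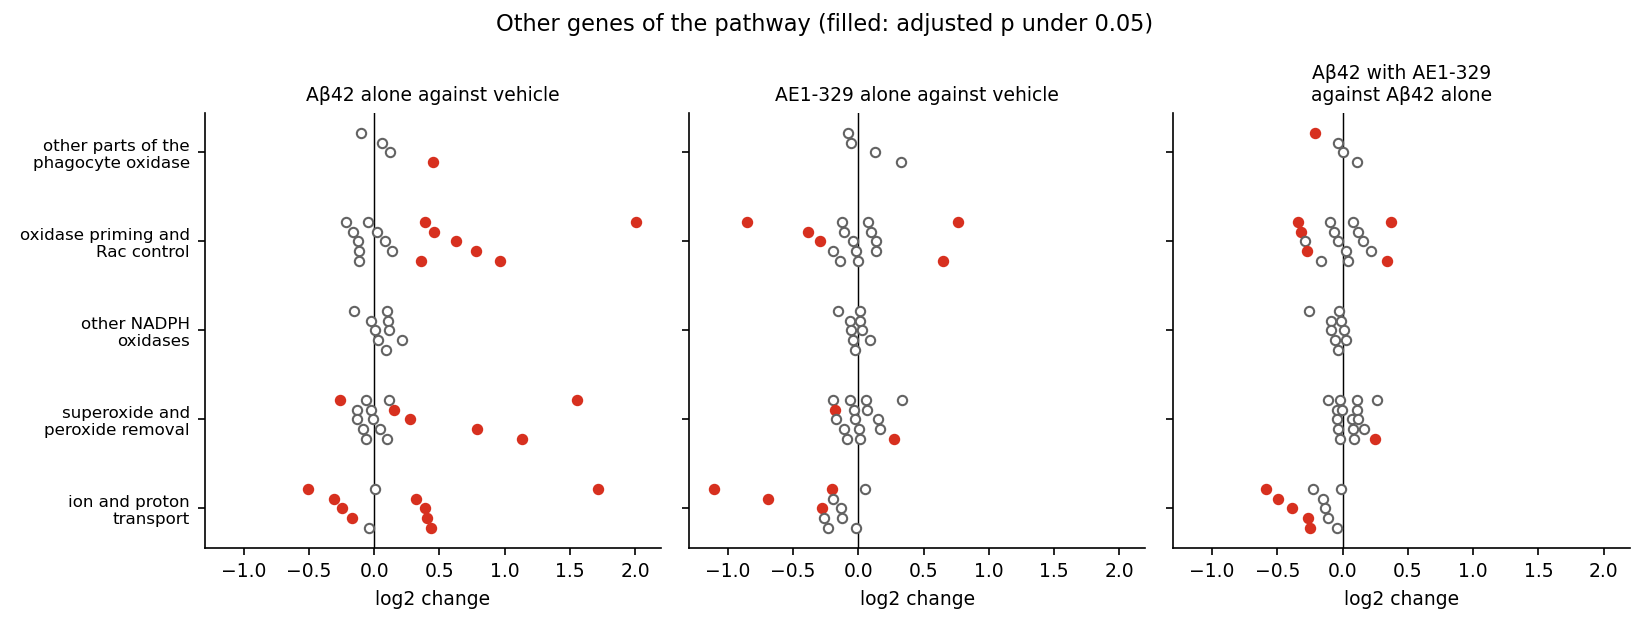
Log2 changes of the measured genes of the 5 pathway lists in 3 comparisons, 1 point per gene, with genes that passed the adjusted p threshold of 0.05 filled. Syk at 2.004, Kcna3 at 1.72 and Txnrd1 at 1.55 stand out with Aβ42 alone, and the other NADPH oxidases lie around 0 in all 3 comparisons.

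The markers of cell types were read beside these changes, with those named here chosen after their values were seen, and their part in the results was not tested. The mean level of 11 microglia markers lay between 11.01 and 11.05 with Aβ42 and AE1-329, between 11.16 and 11.21 with Aβ42 alone, between 11.15 and 11.20 with AE1-329 alone and between 11.28 and 11.30 with vehicle. Of these markers 2 rose and 4 fell with Aβ42 alone against vehicle, and 1 rose and 3 fell with AE1-329 alone. Without vehicle replicate 1 the counts were 1 and 3 with Aβ42 alone, and 0 and 3 with AE1-329 alone. With all arrays, 10.7% of all genes rose and 14.8% fell with Aβ42 alone, and 4.71% and 5.45% with AE1-329 alone. Cx3cr1, the fractalkine receptor gene, averaged 11.02 with AE1-329 alone and 11.84 with vehicle. P2ry12 averaged 7.74 with Aβ42 alone, 8.58 with AE1-329 alone and 9.18 with vehicle. The mean of 12 neutrophil markers lay between 6.24 and 6.34 with Aβ42 and AE1-329, between 6.23 and 6.35 with Aβ42 alone, between 6.26 and 6.36 with AE1-329 alone and between 6.32 and 6.40 with vehicle, and 1 rose and 3 fell with Aβ42 alone, or 1 and 2 without vehicle replicate 1. With AE1-329 alone none of them rose and 1 fell. Of 5 B cell markers, 1 rose and none fell with Aβ42 alone, but none rose and 1 fell when vehicle replicate 1 was left out, and with the replicate block 1 rose and 1 fell. Their mean lay between 6.29 and 6.44 there and between 6.18 and 6.40 with vehicle. Of the astrocyte, oligodendrocyte, neuron, and endothelial and mural markers, 8 each, with Aβ42 alone against vehicle 1 astrocyte gene rose, 1 oligodendrocyte gene and 1 endothelial or mural gene fell, and no neuron gene passed, none at an unadjusted p under 0.05 either. With the replicate block 2 astrocyte genes rose, and 1 endothelial or mural gene rose beside the 1 that fell. With AE1-329 alone no astrocyte, oligodendrocyte, neuron or B cell marker passed, 1 astrocyte gene did with the replicate block, and 2 endothelial or mural genes rose and 1 fell. Pecam1 averaged 7.75 with AE1-329 alone and 6.52 with vehicle, and Kdr 7.92 with AE1-329 alone and 7.28 with vehicle. Flt1 went the other way, at 7.37 with AE1-329 alone and 7.81 with vehicle. These marker changes stood beside the fall of Hvcn1 and Sod2 with AE1-329 alone.

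Genes with patterns most like those of the members were sought among 17389 named genes, by the root mean square distance between values taken as the level minus the gene's own vehicle mean, over the 12 arrays. Cybb had Rnf14 (0.048), Limd1 (0.048) and Mmadhc (0.051) nearest, and Cyba had Klf16, Vps28 and Pitpnb, at 0.033 to 0.039. Ncf1 had Fhl3 (0.070), Pik3ap1 (0.081) and Nfkbib (0.086). Ncf4 had Relb, an NF-kB subunit gene, at 0.141, Slfn2 at 0.167 and Acp5 at 0.175. Rac2 had Reps1 (0.052), Myd88 (0.065) and Ralgapa2 (0.065). Hvcn1 had Plek at 0.118, Rasa4 at 0.123 and Calcrl at 0.127, which with AE1-329 alone against vehicle changed by -0.51, -0.39 and -0.61. Sod2 had Klf7 at 0.142, Dusp16 at 0.145 and Mcoln2 at 0.163. These distances describe the 12 arrays and were not tested.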

How the data were processed

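RNA of 12 microglia samples, 3 litters in each of 4 treatment groups, was hybridised to Affymetrix Mouse Gene 1.0 ST arrays. Each deposited value is the log2 expression of 1 probe set in 1 sample. Per the submitters' processing notes, RMA and Partek 6.5 were used, with no role given for either, and other steps of the authors are not stated. Of 35556 probe sets, 21789 have 1 gene symbol, 1621 several and 12146 none in the platform annotation. The probe set with the highest mean was kept for each gene, 19938 in all, and 21698 of the probe sets with 1 symbol matched RefSeq GRCm38.p6, which was used for names and promoters only. All value columns were matched by the sample identifier in their name, and the sample titles gave the group and replicate number.

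Changes were fitted with limma 3.58.1 in R 4.3.3 as group means over all 12 arrays, with 8 residual degrees of freedom, and checked on simulated data. P-values were adjusted by the Benjamini-Hochberg method over all genes. The number of arrays limits the precision. Replicate numbers were taken to mark litters, from the study's design text; same-numbered arrays deviated together with a mean correlation of 0.33 over 18 pairs (0.0044 to 0.54), and 17 of 18 were above 0.1. The text names all members, up to 5 called genes of each pathway list in the order of their p with Aβ42 alone, and the 3 genes nearest to each member. The members and lists were chosen with earlier results of these data known. Alternatives were a replicate block, a level filter, the mean of a gene's probe sets, all probe sets, quantile normalization, a trended robust prior, fitting only the arrays compared, and leaving out each array.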

Additional observations from a re-analysis of the deposited data

Results flagged for a closer look

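The AE1-329 change of Sod2 went in opposite directions with and without Aβ42 in every litter. With Aβ42 present it was 0.10, 0.04 and 0.04, and without Aβ42 it was -0.63, -0.38 and -0.16. The difference of the 2 changes was 0.45 on the log2 scale. Its test, the limma interaction, had an adjusted p of 0.0707, and of 0.0402 with the replicate block. The changes with Aβ42 present did not pass a test of their own. Vehicle replicate 1 had the highest Sod2 level of its group, and without it the difference was 0.35.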

How the results depend on the processing

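Of 42 changes of the 7 genes, 28 kept their direction and their side of the threshold under every alternative run. Some alternatives could not move a change itself. Each member had 1 probe set, so averaging probe sets or testing all of them left its values as they were. Leaving out an array of a group not compared could alter only the spread and the adjusted p. The replicate block changed 1 count of called members, the interaction, which became 1 with limma (Sod2, adjusted p = 0.0402). That count also became 1 with only genes above the median level (adjusted p = 0.0431) and with the trended robust prior (adjusted p = 0.0354), and ranged from 0 to 2 when 1 array was left out. With AE1-329 alone against vehicle, 2 called members became 1 when only the arrays compared were fitted. Leaving out 1 array gave 6 to 7 called members with Aβ42 alone against vehicle, 2 to 3 with AE1-329 alone, 0 with AE1-329 added to Aβ42, 6 to 7 with both agents against AE1-329 alone and 6 to 7 with both agents against vehicle. Calls over all genes were, in that order, 4210 to 5698, 1410 to 2345, 1491 to 3093, 3507 to 5406 and 3333 to 4679. Cyba passed with Aβ42 alone under the trended robust prior (limma adjusted p = 0.0446) and without vehicle replicate 3 (limma adjusted p = 0.0403). Its call with both agents against vehicle was lost under most alternatives, with limma adjusted p between 0.0514 and 0.161 where lost, and against AE1-329 alone it passed under 4, with limma adjusted p between 0.00786 and 0.0408. Changes of sign came only from leaving out an array and only in changes that had no call: with AE1-329 alone, Ncf1 ranged from -0.076 to 0.054, Cyba from -0.043 to 0.075 and Rac2 from -0.041 to 0.077; with AE1-329 added to Aβ42, Hvcn1 ranged from -0.039 to 0.042; in the interaction, Cybb ranged from -0.033 to 0.033, Cyba from -0.032 to 0.085 and Ncf4 from -0.34 to 0.031. Over all genes the interaction had 389 calls, 677 with the replicate block and 246 to 557 without 1 array, and AE1-329 alone against vehicle had 2026, or 970 when only the arrays compared were fitted. The 3 arrays a group and 1 probe set a gene limit the precision, and the cause of these shifts was not tested.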
